A study of Mus musculus with 12 samples.

Results

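Cytosolic ribosomal proteins are the protein components of the ribosomes that translate nuclear-encoded messages. The 85 genes described here are the protein-coding genes of the table whose symbols begin with Rpl or Rps and a digit, or are Rplp0, Rplp1 or Rplp2, without the Rps6k kinases and the pseudogenes, out of 47643 genes in all. They hold 43 genes of the large subunit, 30 of the small subunit, the 3 genes of the stalk and 8 paralogs that encode alternative copies of a ribosomal protein. The symbol rule also takes Rps19bp1, which encodes a binding partner of a ribosomal protein and not a ribosomal protein, and it does not take some ribosomal genes with other symbols, such as Rpsa and Rack1. RNA was measured in 12 libraries of intestine from male C57BL/6 mice of 7 to 8 weeks. The 4 groups had 3 libraries each. Pparafl/fl mice, called WT in the sample titles, carry floxed alleles of Ppara, which encodes a fatty-acid-activated nuclear receptor. PparaΔIE mice, called KO in the titles, are named for its loss from the intestinal epithelium. Each genotype was fed chow or a 60% high-fat diet (HFD) for 10 days, and both diet groups of a genotype share that genotype's alleles. The labels name neither the recombinase that drives the deletion nor the intestinal segment, and they do not say that the replicates came from separate animals, so the spread behind each p-value may be technical.

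A ribosome contains a single copy of nearly every ribosomal protein, and cells match the output of these genes to one another and to growth. Most of their messages begin with a cytosine followed by a run of pyrimidines, the 5′ terminal oligopyrimidine (TOP) motif, through which the kinase complex mTORC1 and the RNA-binding protein Larp1 govern their translation and stability. In the intestine, ribosome production is highest in the dividing crypt cells and falls as enterocytes mature on the villus.

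The start regions of 10 genes are shown because they bear the pyrimidine run of this gene class or, for comparison, lack it. Each sequence holds 25 bases before and 15 bases from the annotated start onward, 5′ to 3′ on the gene's own strand, from RefSeq on GRCm38.p6 (mm10). Capitals mark runs of at least 5 C or T. Not every gene of the class bears such a run here: in Rpl41, not shown, the longest was 3 bases. Rps2, Rpl12, Rpl35 and Rpl39 fell on the high-fat diet in both genotypes and Rpl38 in Pparafl/fl, Rplp2 is a stalk gene, Rpl22l1 and Rps27 belong to paralog pairs, Rpl4 differed little and Rps19bp1 is no ribosomal protein. Rpl35 and Rpl4 were chosen after their values were seen.
Rps2 (chr17:24720038-24720077, plus strand): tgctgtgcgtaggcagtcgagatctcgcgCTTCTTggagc
Rpl12 (chr2:32961687-32961726, plus strand): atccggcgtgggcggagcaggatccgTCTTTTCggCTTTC
Rpl35 (chr2:39005117-39005156, minus strand): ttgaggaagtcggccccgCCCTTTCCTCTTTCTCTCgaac
Rpl38 (chr11:114668555-114668594, plus strand): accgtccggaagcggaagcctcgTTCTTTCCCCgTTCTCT
Rpl39 (chrX:37085208-37085247, minus strand): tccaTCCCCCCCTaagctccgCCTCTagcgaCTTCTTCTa
Rplp2 (chr7:141447626-141447665, plus strand): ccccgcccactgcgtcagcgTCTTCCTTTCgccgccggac
Rpl22l1 (chr3:28805483-28805522, plus strand): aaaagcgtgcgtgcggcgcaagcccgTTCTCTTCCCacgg
Rps27 (chr3:90213634-90213673, minus strand): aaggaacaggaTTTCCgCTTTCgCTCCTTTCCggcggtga
Rpl4 (chr9:64173362-64173401, plus strand): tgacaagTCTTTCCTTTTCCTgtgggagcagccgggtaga
Rps19bp1 (chr15:80264292-80264331, minus strand): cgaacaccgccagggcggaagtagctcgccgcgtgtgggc

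Of the 85 genes, 65 had an entry in the RefSeq promoter table, which covers 250 bases before to 50 bases after the start of 27025 genes. An annotated start that reads C followed by 4 or more C or T was found in 14 of the 65 (21.5%), against 3.01% of all genes. The letters CTTTCC on the sense strand within 30 bases of the start occurred in 13 (20%), against 3.4% of all genes. CGGAAG, the core that ETS-family factors such as Gabpa recognise, occurred on either strand of the whole window in 43 (66.2%), against 18.8% of all genes. The TATA-box letters TATAAA, searched on the sense strand just upstream of the start, occurred in 1 of the 65 (1.54%), against 2.89% of all genes. The start motif was found in 21.4% of the 28 promoters of genes that fell in either genotype on the high-fat diet and in 21.6% of the 37 others. The shares were 17.9% and 21.6% for CTTTCC and 67.9% and 64.9% for CGGAAG. For CTCTTT, searched like CTTTCC and found in 16.9% of the 65 and 2.68% of all genes, they were 10.7% and 21.6%. None of these splits was tested. Annotated starts can lie some bases from the start a cell uses, so a missing match says only that these letters are not in this window.

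Libraries held 33621040 to 53959405 expected counts before rounding, and 82 of the 85 genes passed the filter on low counts. Ppara, the targeted gene, stood at 18.1 to 22.0 CPM (counts scaled to a common library size) in the Pparafl/fl chow libraries and at 8.42 to 15.6 in PparaΔIE chow. On the high-fat diet it stood at 33.7 to 39.3 CPM in Pparafl/fl and at 11.1 to 17.3 in PparaΔIE. Markers of the distal ileum summed to 6974 to 8973 CPM in every library and those of enterocytes to 30249 to 41841, while 8 pancreatic acinar markers stayed under 0.2 CPM in sum, with Cela3b and Pnlip at 0 throughout. Markers of the proximal small intestine summed to 7.47 to 7.71 CPM in Pparafl/fl chow, and to 7.68, 113.5 and 67.5 CPM in PparaΔIE chow libraries 1, 2 and 3. They reached 108 to 419 CPM in Pparafl/fl HFD and 61.2 to 162.5 in PparaΔIE HFD. On this diet the sum came mostly from Lct, at 50.2 to 256 CPM, and Fabp1. Fabp1 stood at 29.8 to 155.5 CPM in Pparafl/fl HFD and at 9.06 to 18.0 in PparaΔIE HFD. In PparaΔIE chow 2 and 3 Lct was at 101.9 and 57.6 CPM. Over all libraries Gata4 stood at 1.72 to 12.9 CPM, and Cyp8b1 and Onecut2 reached at most 0.18 and 0.69. The 3 Pparafl/fl chow libraries lay very close together, and PparaΔIE chow 3 lay between the other libraries of its group for 74 of the 82 ribosomal protein genes. Pparafl/fl HFD 2 did so for 69 and PparaΔIE HFD 1 for 57.

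The ribosomal protein genes as a class were lowest on the high-fat diet in both genotypes. Their summed level was 20346, 20109 and 20526 CPM in the 3 Pparafl/fl chow libraries. In PparaΔIE chow it was 20492, 17481 and 18744 CPM. On the high-fat diet it was 18482, 16423 and 15613 CPM in Pparafl/fl and 15809, 16316 and 15212 in PparaΔIE. Thus each HFD group lay wholly below the chow group of its genotype, while the genotypes overlapped on both diets. As a share of all counts, the class made up 1.9996% ± 0.00963 (SD, n = 3) in Pparafl/fl chow, 1.86% ± 0.0706 in PparaΔIE chow, 1.72% ± 0.216 in Pparafl/fl HFD and 1.60% ± 0.107 in PparaΔIE HFD. In bulk tissue, fewer cells rich in these messages and less message per cell cannot be told apart.

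**Figure D1:**
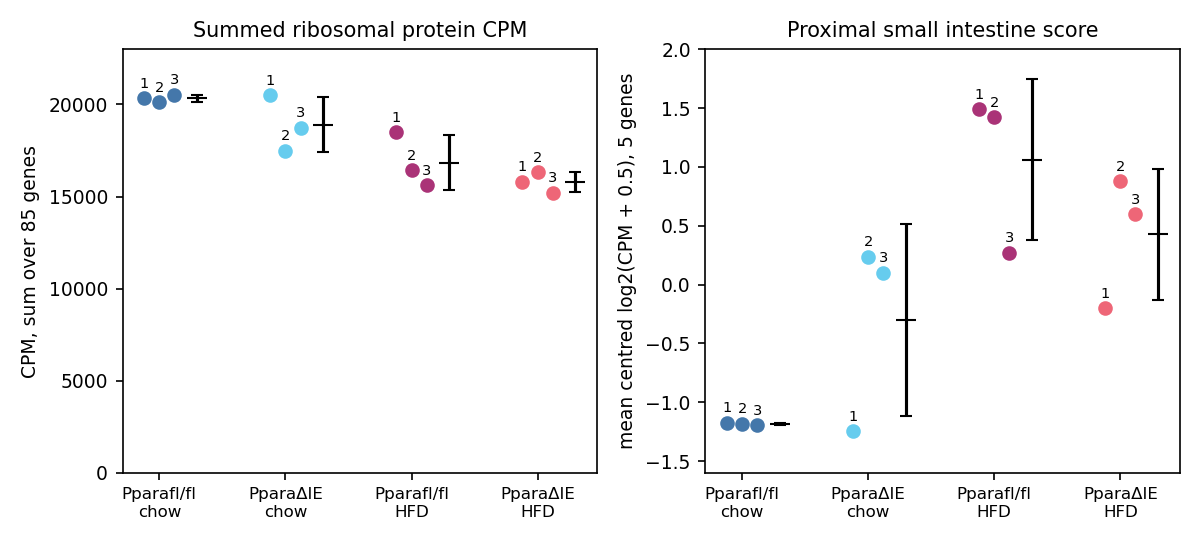
Summed CPM of the 85 ribosomal protein genes in each of the 12 libraries, by group. The Pparafl/fl chow libraries lie between 20109 and 20526 CPM, and PparaΔIE HFD between 15212 and 16316, with Pparafl/fl HFD 1 at 18482 above the other HFD libraries.

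The genes moved together. Across the 12 libraries the median standard deviation of a gene's log2 CPM was 0.17, and 0.06 once the median deviation of all tested members was subtracted from each library. In the Pparafl/fl chow libraries 1 of the 82 genes in each lay below its own 12-library mean, and in PparaΔIE chow 1, 2 and 3 this held for 0, 62 and 10. In Pparafl/fl HFD 1, 2 and 3 it held for 14, 80 and 80 genes, and in PparaΔIE HFD for 80, 79 and 82. PparaΔIE chow 2 and Pparafl/fl HFD 1 thus differed from the other libraries of their groups. The subunits kept close proportions: the ratio of summed large-subunit to small-subunit CPM ran from 1.29 to 1.34 over all libraries.

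**Figure D2:**
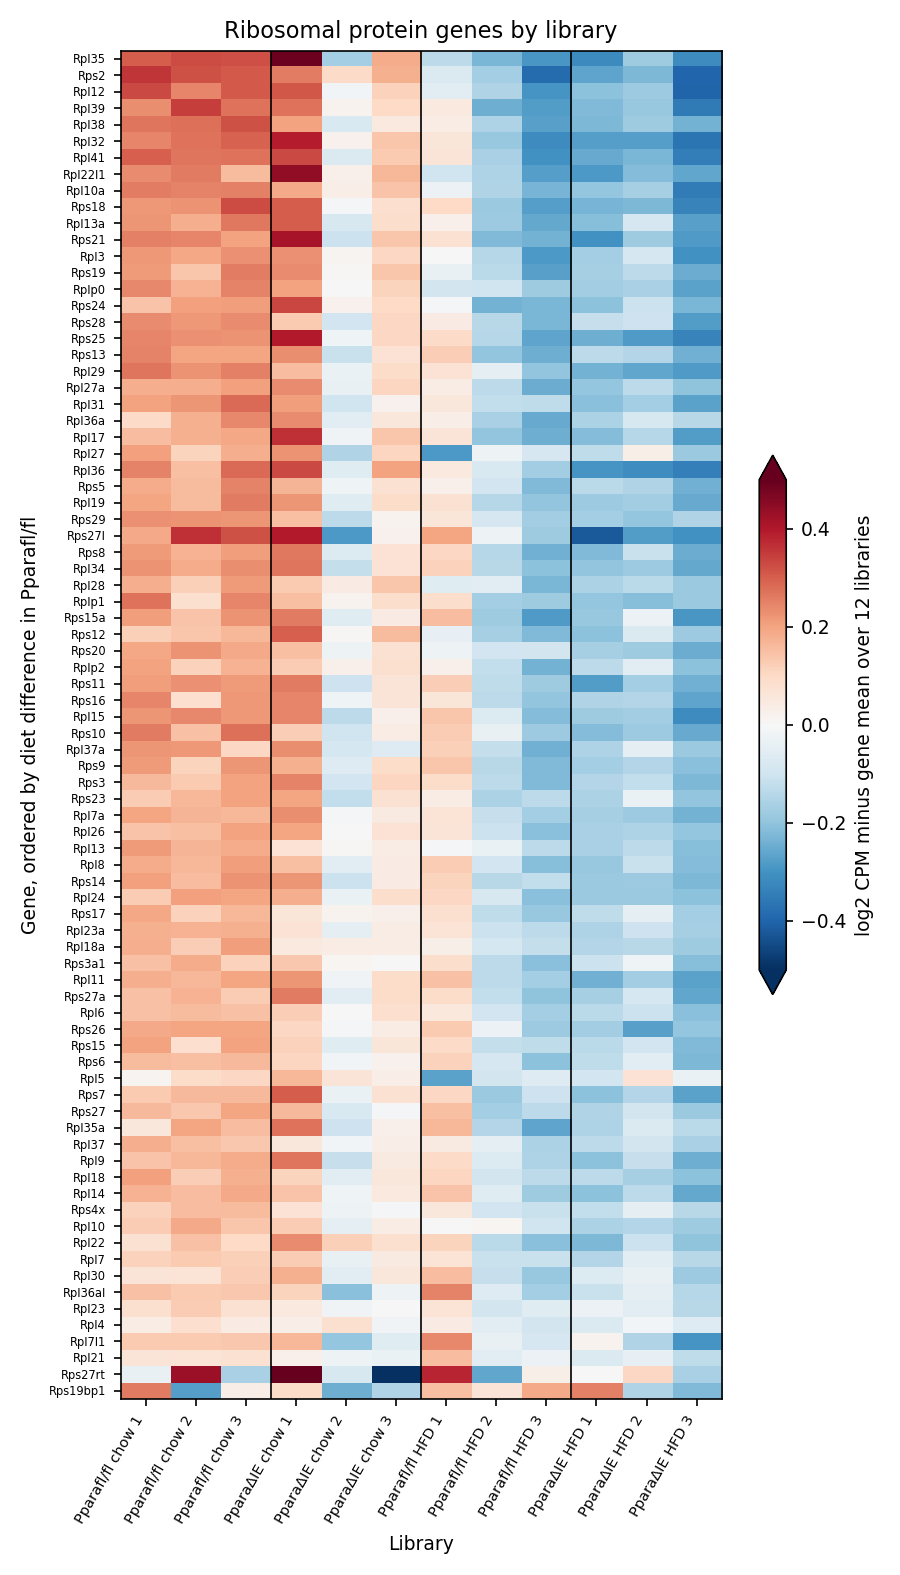
Each row is one of the 82 tested genes, ordered by the diet difference in Pparafl/fl, and each column a library. The colour is log2 CPM minus the gene's mean over the 12 libraries, saturating at the ends of the bar. Pparafl/fl chow, PparaΔIE chow 1 and 3 and Pparafl/fl HFD 1 stand above most means. PparaΔIE chow 2 and the other 5 HFD libraries stand below most of them.

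In Pparafl/fl mice, 33 of the 82 genes fell on the high-fat diet against chow and 0 rose (edgeR quasi-likelihood test, adjusted p under 0.05 over 17602 genes). Of all genes tested 6.57% fell and 13.4% were called in either direction. The median log2 fold change of the 82 was −0.26, a decrease of 16.6%, against 0.0060 over all genes tested, and 81 of 82 values were below 0. The HFD libraries lay wholly below the chow libraries for 66 of the 82 genes, against 18.6% of all genes. By role, 19 of 43 large-subunit genes, 10 of 30 small-subunit genes, all 3 stalk genes and 1 of 5 tested paralogs fell.

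In PparaΔIE mice, 24 of the 82 genes fell on the high-fat diet and 0 rose. Of all genes tested 4.76% fell and 8.2% were called in either direction. The median log2 fold change was −0.26, a decrease of 16.4%, against 0.0100 over all genes, and 81 of 82 values were below 0. HFD and chow libraries did not overlap for 69 genes, all lower on the high-fat diet, against 13.1% of all genes lower in this way. Here 13 of 43 large-subunit genes, 9 of 30 small-subunit genes, 1 of 3 stalk genes and 1 of 5 tested paralogs fell. The genes that fell in both genotypes numbered 18, and 39 fell in either. The 2 diet contrasts share no library, and their fold changes across the 82 genes had a Pearson r of 0.83 and a Spearman rho of 0.75. This is a description across genes, which are not independent replicates. The 18 were Rpl10a, Rpl12, Rpl22l1, Rpl28, Rpl29, Rpl32, Rpl35, Rpl36, Rpl39, Rpl41, Rplp0, Rps2, Rps12, Rps18, Rps19, Rps20, Rps24 and Rps25. With the trend of transcript length removed, as described below for the whole class, 4 of them (Rpl12, Rpl32, Rps2 and Rps20) were called in both genotypes. Rps2 alone was called in both in all 12 fits that left out 1 library. The annotated transcript of Rps20, at 3706 bases, is the longest of the tested members, and its correction rests on that length.

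**Figure D3:**
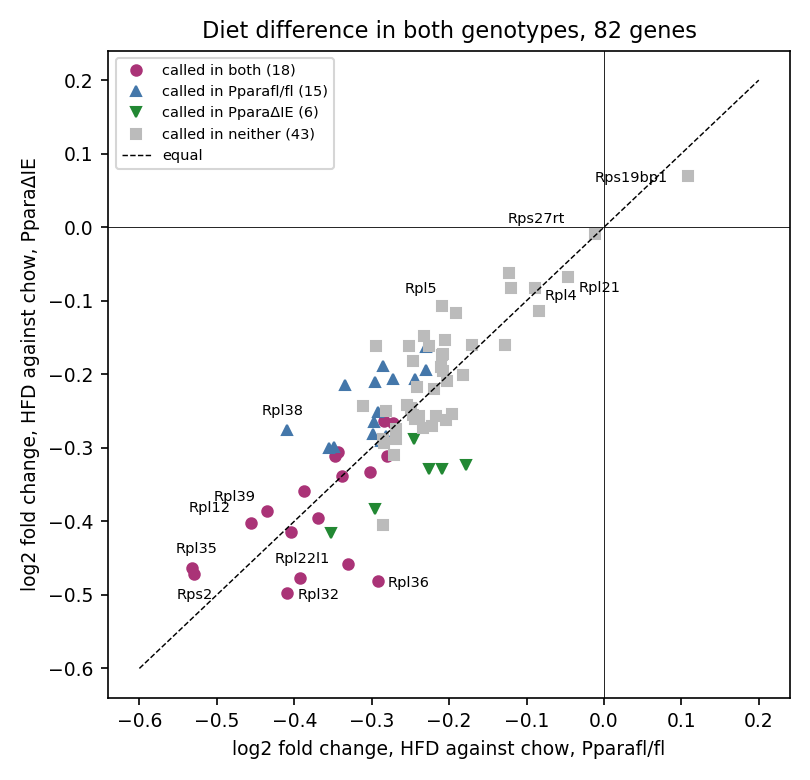
Log2 fold change of HFD against chow for each of the 82 genes, in Pparafl/fl (x axis) and PparaΔIE (y axis). Symbols separate the 18 genes called in both genotypes, the 15 and 6 called in Pparafl/fl or PparaΔIE alone, and the 43 called in neither. Nearly all points lie at negative values on both axes, close to the dashed line of equal values.

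Both diet counts depended on single libraries and on the libraries fitted, although no fit without a library turned either median upward. The Pparafl/fl count was 6, 9 and 7 without Pparafl/fl chow 1, 2 and 3, and 69, 10 and 5 without Pparafl/fl HFD 1, 2 and 3. It was 51, 50 and 20 without PparaΔIE chow 1, 2 and 3, which are in the fit but not in this contrast. The PparaΔIE count was 6, 55 and 5 without PparaΔIE chow 1, 2 and 3, and 8, 7 and 7 without PparaΔIE HFD 1, 2 and 3. It was 15 and 12 without Pparafl/fl chow 2 and 3, and 40 without Pparafl/fl HFD 1. With only the groups compared in the fit, 43 genes were called in Pparafl/fl and 1 in PparaΔIE. Without both Pparafl/fl chow 1 and PparaΔIE chow 3, 1 and 0 genes were called, with medians of −0.26 and −0.28. Rpl10a, Rpl12, Rpl38, Rpl39 and Rps2 were called in Pparafl/fl in all 12 fits that left out 1 library, and Rpl22l1, Rpl32, Rpl36 and Rps2 in PparaΔIE. With the proximal markers' score as a covariate 0 and 2 genes were called, with medians of −0.24 and −0.25. That score ran from −1.19 to −1.18 in Pparafl/fl chow and from 0.27 to 1.49 in Pparafl/fl HFD. It therefore cannot be told apart from diet in Pparafl/fl.

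Transcript length moved with the diet contrasts in genes outside the class. Ribosomal protein messages are short, with a median annotated length of 680.5 bases among the tested members. Among 1049 other protein-coding genes with transcripts of up to 1000 bases, the median log2 fold change on the high-fat diet was −0.16 in Pparafl/fl and −0.16 in PparaΔIE, and 13.2% and 10.6% of them fell. In the 65 ribosomal protein genes of that length the medians were −0.27 and −0.26, and in the 17 longer ones −0.25 and −0.26. These lengths are annotated ones, up to 3706 bases for Rps20, and the transcripts expressed were not measured. The other 13080 protein-coding genes, with longer transcripts, had medians of 0.0097 and 0.016. In the trend fitted to genes outside the class, a transcript of 500 bases stood 0.18 to 0.20 above its mean (log2) in Pparafl/fl chow, and 0.16, −0.14 and 0.016 in PparaΔIE chow 1, 2 and 3. It stood at 0.14, −0.042 and −0.12 in Pparafl/fl HFD 1, 2 and 3, and at −0.13, −0.21 and −0.19 in PparaΔIE HFD. That trend was then removed from each library, a setting chosen after seeing the data. Called in either direction were 8 of the 82 genes in Pparafl/fl and 7 in PparaΔIE, all of them lower. Of all genes, 11.1% and 5.98% were called in either direction. The medians of the 82 were then −0.096 and −0.091. What sets the trend was not tested.

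**Figure D4:**
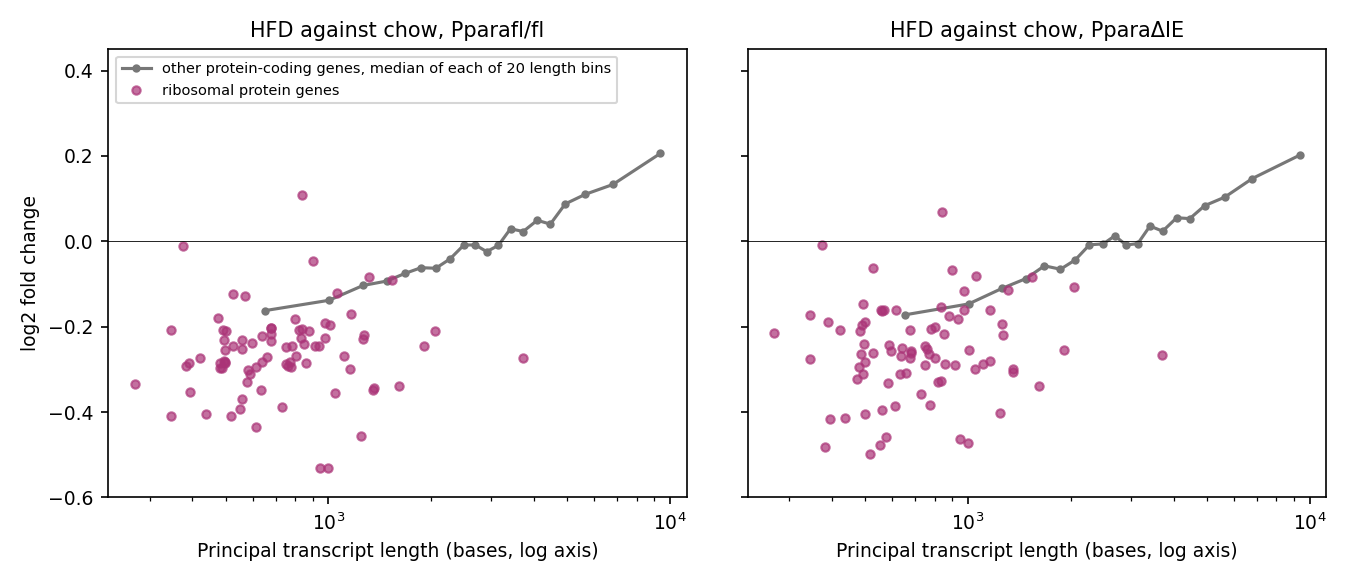
Log2 fold change of HFD against chow by annotated transcript length in bases (log axis), in Pparafl/fl (left) and PparaΔIE (right). Points are the ribosomal protein genes, and the grey line joins the medians of 20 length bins of other protein-coding genes. The line falls below 0 for the shortest transcripts in both genotypes, and most points lie below the line.

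Other cell types also differed between the groups. Proliferation markers summed to 564 to 578 CPM in Pparafl/fl chow and 453 to 530 in PparaΔIE chow. On the high-fat diet they summed to 434 to 577 CPM in Pparafl/fl and 420 to 516 in PparaΔIE. On diet 1 of the 15 fell in Pparafl/fl (median −0.28) and 0 in PparaΔIE (median −0.10), with 12 values below 0 in each. Of all genes tested 6.57% and 4.76% fell. Between the genotypes on chow 0 were called, with all 15 values below 0 (median −0.26). The 12 stem and crypt base markers did not follow them. On diet 1 rose and 1 fell in Pparafl/fl, with 8 values above 0 (median 0.15). In PparaΔIE 2 of these markers fell, with 5 values above 0 and 7 below (median −0.082). Between the genotypes on chow 0 of the 12 were called, with 8 values above 0 (median 0.094). Paneth cell markers summed to 9493 to 20114 CPM in the chow libraries and 5905 to 8728 in the HFD libraries, but on the high-fat diet 4 of the 10 rose and 2 fell in Pparafl/fl (median 0.37), and 1 fell in PparaΔIE (median 0.064). T cell markers summed to 89.0 to 184 CPM on chow and 63.0 to 110 on the high-fat diet. Of these 12, 3 fell in Pparafl/fl (median −0.30) and 2 in PparaΔIE, where 7 values were above 0 (median 0.098). Smooth muscle markers summed to 255 to 284 CPM in PparaΔIE HFD and 177 to 224 elsewhere, mostly from Mylk, at 128.5 to 199 CPM. Of the 10, none passed the test on diet in Pparafl/fl (0 called, 4 at an unadjusted p under 0.05, edgeR), where 8 values were below 0 (median −0.38), and 4 rose in PparaΔIE, where all 10 were above 0 (median 0.87). With their score as a covariate the diet count was 3 in Pparafl/fl and 73 in PparaΔIE, with medians of −0.13 and −0.49. In PparaΔIE that score ran from −0.40 to −7.4e-04 on chow and from 0.45 to 0.71 on the high-fat diet. It therefore cannot be told apart from diet in PparaΔIE. The part of the proliferation, stem and crypt base, Paneth and T cell lists in the result was not tested.

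Rps2, a small-subunit protein near the channel by which messenger RNA enters, had the smallest p of the class in Pparafl/fl. Its level was 693, 675 and 669 CPM in Pparafl/fl chow and 515, 482 and 414 in Pparafl/fl HFD. In PparaΔIE it was 646, 578 and 612 CPM on chow and 450.3, 463 and 411 on the high-fat diet. Every HFD library lay below every chow library, whatever the genotype. The log2 fold change was −0.53 (SE 0.09, adjusted p = 0.0027, edgeR) in Pparafl/fl and −0.47 (SE 0.09, adjusted p = 0.0077) in PparaΔIE. With the length trend removed it was −0.40 (adjusted p = 0.0053) and −0.34 (adjusted p = 0.020). The gene lies at chr17:24718116-24721929.

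Of the large-subunit proteins, Rpl12 sits at the base of the stalk beside Rplp0. Rpl12 was at 264, 248 and 259 CPM in Pparafl/fl chow and 202, 189 and 171 in Pparafl/fl HFD, without overlap. In PparaΔIE it was at 260.1, 208 and 227 CPM on chow and 182, 185 and 159 on the high-fat diet, again without overlap. It fell by 0.46 (SE 0.09, adjusted p = 0.0073) on the log2 scale in Pparafl/fl and by 0.40 (adjusted p = 0.020) in PparaΔIE, and with the length trend removed by 0.35 and 0.29 (adjusted p = 0.011 and 0.041). Rpl10a, part of the mobile L1 stalk from which used transfer RNAs leave, was at 255, 254 and 255 CPM in Pparafl/fl chow and 209.6, 193 and 182 in Pparafl/fl HFD. In PparaΔIE Rpl10a went from 244, 219 and 236 CPM on chow to 187, 190.4 and 167.5 on the high-fat diet, and neither genotype's groups overlapped. Rpl10a fell by 0.39 (adjusted p = 0.0065) and by 0.36 (adjusted p = 0.015) on the log2 scale. Its adjusted p with the length trend removed was 0.042 in Pparafl/fl and 0.098 in PparaΔIE, where the call was lost.

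Rpl35 and Rpl39 line the exit of the tunnel through which the new chain leaves. Rpl35 was at 90.2, 91.6 and 91.3 CPM in Pparafl/fl chow against 66.8, 62.4 and 59.8 in Pparafl/fl HFD. In PparaΔIE chow Rpl35 was at 103, 65.0 and 83.2 CPM, and in PparaΔIE HFD at 58.6, 64.6 and 58.7. The PparaΔIE chow libraries thus spread widely, and chow 2 lay within 1 CPM of the highest HFD library. Rpl35 fell by 0.53 (SE 0.12, adjusted p = 0.012) and by 0.46 (SE 0.12, adjusted p = 0.032). Rpl39 fell by 0.43 (adjusted p = 0.0091) in Pparafl/fl, from a mean of 124 ± 4.95 (SD, n = 3) to 92.0 ± 11.9 CPM, and by 0.39 (adjusted p = 0.023) in PparaΔIE, from 112 ± 10.2 to 85.8 ± 5.03. Both kept their calls in Pparafl/fl with the length trend removed and lost them in PparaΔIE, where the adjusted p was 0.065 for Rpl35 and 0.084 for Rpl39. Rpl4, which also lines the tunnel, had log2 fold changes of −0.090 and −0.083, and its HFD libraries, at 424 to 466 CPM, overlapped the chow libraries at 447 to 480.3.

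Rpl36 and Rpl32, both of the large subunit, had the smallest p and the largest fold change of the class in PparaΔIE. Rpl36 was at 111, 84.7 and 101 CPM in PparaΔIE chow and 71.9, 71.2 and 69.6 in PparaΔIE HFD. In Pparafl/fl Rpl36 was at 105, 98.1 and 107 CPM on chow and 91.2, 83.8 and 78.3 on the high-fat diet. Its groups did not overlap in either genotype, and it fell by 0.48 (SE 0.09, adjusted p = 0.0073) in PparaΔIE and by 0.29 (SE 0.09, adjusted p = 0.046) in Pparafl/fl. Its log2 fold change with the length trend removed was −0.26 (adjusted p = 0.022) in PparaΔIE and −0.074 (adjusted p = 0.47) in Pparafl/fl. The Pparafl/fl call held in 4 of the 12 fits that left out 1 library. Rpl32 fell from 293, 227 and 245 CPM to 184, 184 and 173 in PparaΔIE, by 0.50 (SE 0.10, adjusted p = 0.011). In Pparafl/fl Rpl32 fell from 264, 269 and 274 CPM to 233, 195 and 179, by 0.41 (adjusted p = 0.019), and it kept both calls with the length trend removed (adjusted p = 0.016 and 0.042). Rpl38, known for its part in translating homeobox messages in the embryo, was at 119, 119 and 123 CPM in Pparafl/fl chow and 101, 88.6 and 81.8 in Pparafl/fl HFD. It fell by 0.41 there (adjusted p = 0.0078), while in PparaΔIE its log2 fold change was −0.28 (adjusted p = 0.062). The Pparafl/fl call was lost with the length trend removed (−0.19, adjusted p = 0.062).

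The stalk proteins Rplp0, Rplp1 and Rplp2 recruit the elongation factors that hydrolyse GTP. Rplp0 was at 948, 905 and 953 CPM in Pparafl/fl chow and 753, 749.9 and 709 in Pparafl/fl HFD. In PparaΔIE Rplp0 was at 923, 801 and 868 CPM on chow and 711, 719 and 668 on the high-fat diet. It fell by 0.34 (adjusted p = 0.014) and by 0.31 (adjusted p = 0.032) on the log2 scale, without overlap in either genotype. The call held in Pparafl/fl with the length trend removed (adjusted p = 0.046) and was lost in PparaΔIE (adjusted p = 0.12). Rplp1 fell by 0.28 in Pparafl/fl (adjusted p = 0.046), although Pparafl/fl HFD 1, at 406 CPM, lay above Pparafl/fl chow 2 at 404. In PparaΔIE the log2 fold change of Rplp1 was also −0.28 (adjusted p = 0.060). Rplp2 fell by 0.27 in Pparafl/fl (adjusted p = 0.035) and had a log2 fold change of −0.21 in PparaΔIE (adjusted p = 0.12). Both Pparafl/fl calls were lost with the length trend removed, at −0.090 for Rplp1 and −0.064 for Rplp2 (adjusted p = 0.48 and 0.64). Per kilobase of transcript, Rplp1 (770.1 CPM per kb) and Rpl41 (709 CPM per kb), a very short basic peptide, were the highest of the class, whose tested members had a median of 289.7 CPM per kb. Rpl41 fell by 0.40 (adjusted p = 0.022) and by 0.41 (adjusted p = 0.028), and with the length trend removed both calls were lost (adjusted p = 0.066 and 0.089).

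Paralogs were measured beside the gene they resemble. Rpl22l1, which can replace Rpl22 in the large subunit, fell by 0.39 in Pparafl/fl (SE 0.09, adjusted p = 0.015) and by 0.48 in PparaΔIE (SE 0.09, adjusted p = 0.0087). It was at 35.6, 36.2 and 33.8 CPM in Pparafl/fl chow and 28.3, 27.1 and 25.01 in Pparafl/fl HFD. In PparaΔIE Rpl22l1 was at 41.1, 30.8 and 33.9 CPM on chow and 24.8, 26.0 and 25.3 on the high-fat diet. Rpl22 itself fell by 0.32 in PparaΔIE (adjusted p = 0.029) and had a log2 fold change of −0.18 in Pparafl/fl (adjusted p = 0.17). Rpl22l1 kept its call with the length trend removed in PparaΔIE (adjusted p = 0.030) and lost it in Pparafl/fl (adjusted p = 0.073), and Rpl22 lost its call in PparaΔIE (adjusted p = 0.32). Rpl22l1 per 100 CPM of Rpl22 was 39.9 to 42.7 in Pparafl/fl chow and 33.1 to 37.7 in Pparafl/fl HFD, while in PparaΔIE the ranges, 35.96 to 44.2 and 35.5 to 36.7, overlapped.

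Rps27l, a p53-inducible copy of the zinc-finger protein Rps27, did not pass the test on diet, with log2 fold changes of −0.28 (adjusted p = 0.20) and −0.41 (adjusted p = 0.097). Rps27 had −0.21 and −0.17 (adjusted p = 0.14 and 0.25). Rpl36al had −0.12 and −0.062 beside −0.30 in Pparafl/fl (adjusted p = 0.038) and −0.21 in PparaΔIE (adjusted p = 0.15) for Rpl36a. Its level per 100 CPM of Rpl36a was 87.1 to 97.0 in Pparafl/fl chow and 99.3 to 108.6 in Pparafl/fl HFD. In PparaΔIE these were 83.9 to 88.4 on chow and 93.4 to 96.8 on the high-fat diet, so that in neither genotype did the diets overlap. Rpl7l1 had log2 fold changes of −0.084 and −0.11, and Rpl7 had −0.17 and −0.16, none of them past the threshold. Rpl3, close to the site of peptide bond formation, fell by 0.35 in Pparafl/fl (adjusted p = 0.022) and had −0.30 in PparaΔIE (adjusted p = 0.056). The Pparafl/fl calls of Rpl36a and Rpl3 were lost with the length trend removed (adjusted p = 0.33 and 0.051). Rpl10, which completes the large subunit late in its maturation, had −0.18 and −0.20 (adjusted p = 0.11 and 0.10). Their relatives Rpl3l, known from striated muscle, and Rpl10l and Rpl39l, known from testis, had 0 to 2 expected counts in a library and were not tested.

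Some members departed from the class. Rps19bp1 was at 4.92 to 7.14 CPM in all libraries, with log2 fold changes of 0.11 and 0.070 (adjusted p = 0.69 and 0.83). Rps27rt, a near copy of Rps27 at 0.785 to 1.92 CPM, had −0.011 and −0.0088. Rpl5, which carries 5S ribosomal RNA into the large subunit, was lowest in Pparafl/fl HFD 1, at 212 CPM, and stood at 238 to 286 CPM in the other 11 libraries. Rpl27 was also lowest there, at 74.2 CPM against 79.7 to 106 elsewhere. In that library, pseudogenes named for Rpl27 held 45.9% of the counts of gene and pseudogenes together, against 17.6% to 27.2% elsewhere. Summed with them, Rpl27 was at 137 CPM in that library and 100.03 to 145.5 elsewhere. Over all members the pseudogene share was 1.52% in Pparafl/fl HFD 1 and 0.8997% to 1.02% in the other libraries. Reads shared with such near copies are divided by estimation, so values of Rpl27, Rps12 and Rpl31 are uncertain. Rps27rt, Rpl5 and Rpl27 were chosen after their values were seen.

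Loss of epithelial Ppara was compared on each diet. On chow, 0 of the 82 genes were called by edgeR between PparaΔIE and Pparafl/fl and 0 by DESeq2, against 0.125% of all genes called. At an unadjusted p under 0.05 stood 7 of the 82, against 2293 of all 17602 genes, a larger share. The median log2 fold change was −0.11, against 0.0031 over all genes, and 78 of 82 values were below 0. PparaΔIE lay wholly below Pparafl/fl for 24 genes, against 12.1% of all genes. The 1049 other protein-coding genes with transcripts of up to 1000 bases had a median of −0.12 in this contrast, so the shift was not particular to the class. Rpl38 had the smallest p, with levels of 113, 93.4 and 102 CPM in PparaΔIE chow below the 119 to 123 of Pparafl/fl chow (log2 fold change −0.22, SE 0.09, adjusted p = 0.31). Rps29, a small zinc-binding protein of the small subunit, followed with −0.21 (SE 0.08, adjusted p = 0.32), from 239 to 240.3 CPM to 188 to 228. The median of the 82 rested in large part on PparaΔIE chow 2, without which it was −0.055, and it was −0.16 without PparaΔIE chow 1. With the length trend removed it was 0.013. With the smooth muscle score as a covariate it was −0.041. That score ran from 0.0038 to 0.070 in Pparafl/fl chow and from −0.40 to −7.4e-04 in PparaΔIE chow. It therefore cannot be told apart from genotype on chow.

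On the high-fat diet 0 genes were called between the genotypes by either tool, against 0.29% of all genes called. At an unadjusted p under 0.05 in edgeR stood 5 of the 82, against 2289 of all 17602 genes, again a larger share. The median log2 fold change was −0.098, against −5.2e-04 over all genes, and PparaΔIE lay wholly below Pparafl/fl for 10 genes, against 8.7% of all genes. Here the 1049 other protein-coding genes with transcripts of up to 1000 bases had a median of −0.13, lower than that of the 82. Rpl36 had −0.25 (SE 0.09, adjusted p = 0.27), with all 3 PparaΔIE libraries below the 3 of Pparafl/fl. Rpl29, a surface protein of the large subunit, had −0.21 (SE 0.08, adjusted p = 0.28), from 189, 173 and 156 CPM to 152, 149.6 and 147. Without Pparafl/fl HFD 1 the median of the 82 was −0.022, and without Pparafl/fl HFD 3 it was −0.15. With the length trend removed it was 0.038. With the smooth muscle score as a covariate 41 genes were called, all lower, with a median of −0.40. That score ran from −0.75 to 0.15 in Pparafl/fl HFD and from 0.45 to 0.71 in PparaΔIE HFD. It therefore cannot be told apart from genotype on this diet. The smooth muscle markers themselves had a median of 1.17 in this contrast, with 10 of 10 above 0 and 2 called higher.

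The interaction asks whether the diet response differed between genotypes. No gene of the 82 was called (0 by edgeR, 0 by DESeq2, and 0 at an unadjusted p under 0.05 in edgeR), against 0.00568% of all genes. The median interaction was 0.0070 on the log2 scale, with values from −0.19 to 0.13 and a median SE of 0.13, so that differences in response of the size of the diet effect itself could be missed in a single gene. Rpl36 had the smallest p (−0.19, SE 0.13, adjusted p = 0.88), followed by Rpl22 (−0.14, SE 0.12, adjusted p = 0.91). With the smooth muscle score as a covariate the median interaction was −0.35, with 41 genes at an unadjusted p under 0.05 and 0 called.

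Genes that act with the ribosome were counted in the same fits. Outside the symbol rule, the small-subunit protein Rpsa and the small-subunit scaffold Rack1 each fell by 0.32 on the log2 scale in Pparafl/fl on the high-fat diet (adjusted p = 0.034 and 0.038), and neither was called in PparaΔIE. Of 8 elongation factor genes, Eif5a, which relieves stalled ribosomes, and Eef1d fell in Pparafl/fl, by 0.37 and 0.27, and 0 were called in PparaΔIE (medians −0.19 and −0.14). Of 15 other genes with TOP messages, Eif3k and Eif3h fell in Pparafl/fl, by 0.30 and 0.26, and 0 were called in PparaΔIE (medians −0.13 and −0.088). Of 30 initiation factor genes, 4 fell in Pparafl/fl, and 3 fell and 2 rose in PparaΔIE (medians −0.070 and −0.030). Eif4ebp1, an mTORC1-controlled inhibitor of cap-dependent translation, fell by 0.53 (adjusted p = 0.0086) and by 0.43 (adjusted p = 0.034). Eif3i fell by 0.43 and by 0.39, Eif2s2 fell by 0.74 in Pparafl/fl, and Eif3b rose by 0.28 in PparaΔIE.

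The lists of ribosome assembly and its control were counted in the same way. Of 19 genes of TOP regulation and mTORC1, 0 were called on diet in either genotype (medians 0.021 and −0.0073). Of 62 ribosome biogenesis factors, Efl1 rose in Pparafl/fl, by 0.22, and 0 were called in PparaΔIE (medians −0.028 and 0.042). Of 15 genes of the RNA polymerase I machinery, Ttf1 rose in PparaΔIE, by 0.26, and 0 were called in Pparafl/fl (medians −0.042 and −0.017). Of 11 snoRNA host genes, Zfas1 fell in both genotypes, by 0.33 and by 0.32. Of 19 genes of the integrated stress response, which slows initiation when a cell lacks amino acids or misfolds proteins, 7 fell in Pparafl/fl, against 6.57% of all genes, among them Atf5 by 0.75 and Chac1 by 1.42, while Eif4ebp1 was the 1 gene called in PparaΔIE (medians −0.28 and −0.097). In the genotype contrasts and the interaction 0 genes of these lists were called.

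Mitochondrial ribosomal proteins, which serve translation inside mitochondria and are not TOP messages as a class, were the closest comparison. Of 78 such genes, 3 fell in Pparafl/fl (Mrps24, Mrpl33 and Mrpl41) and 6 in PparaΔIE (Mrpl48, Mrpl41 and Mrpl54 by smallest p). Of all genes tested 6.57% and 4.76% fell. The 78 had medians of −0.16 and −0.15, close to those of the 1049 short protein-coding genes described above (−0.16 and −0.16). The medians of the cytosolic genes, −0.26 in both genotypes, lay lower, and the difference between the classes was not tested. On genotype the 78 had medians of −0.13 on chow and −0.13 on the high-fat diet, beside −0.11 and −0.098 for the cytosolic genes. Of 87 tested ribosomal protein pseudogenes, 1 fell in Pparafl/fl (Rps2-ps13) and 0 in PparaΔIE. Among the genes named from these lists, Eif4ebp1, Eif3i, Eif2s2, Zfas1, Atf5 and Chac1 kept their calls in Pparafl/fl with the length trend removed, and Eif3b, Mrpl48, Mrpl41 and Mrpl54 kept theirs in PparaΔIE. Their other calls, those of Rpsa and Rack1 included, were lost.

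**Figure D5:**
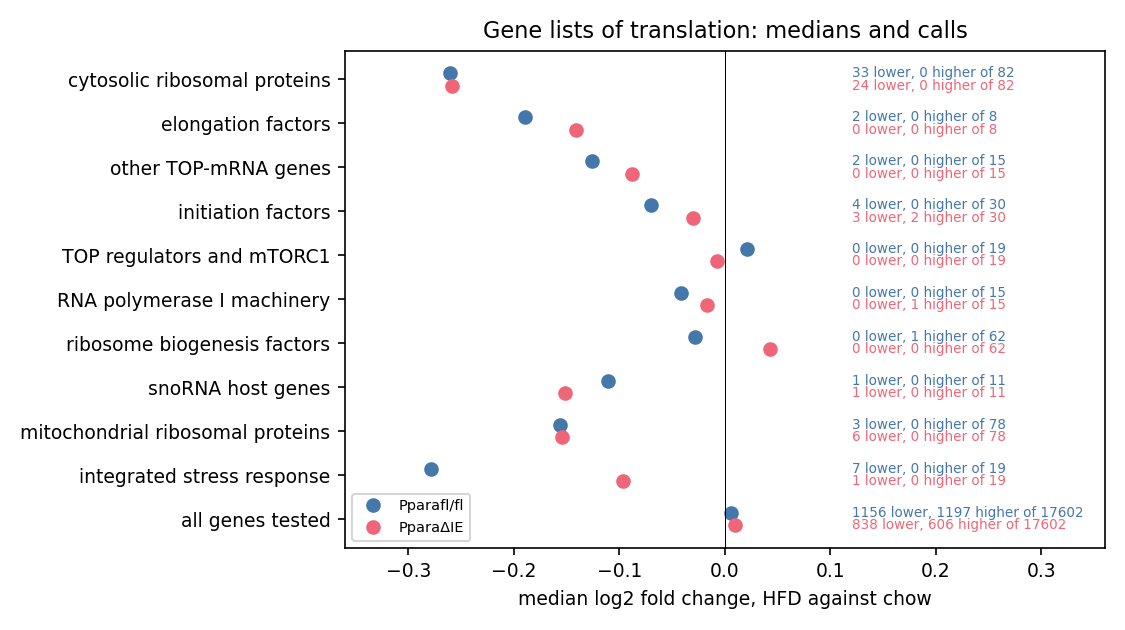
Median log2 fold change of HFD against chow for the ribosomal protein genes and each related gene list, in both genotypes. The cytosolic ribosomal protein genes, at −0.26 in both, lie below the mitochondrial ribosomal proteins at −0.16 and −0.15, and the mTORC1 and biogenesis lists lie near 0.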

How the data were processed

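Bulk RNA was sequenced from stranded total RNA libraries, per the labels' protocols. The deposited values are expected counts per gene, unscaled, which need not be whole. Per the submitters' processing notes, the tools were Trimmomatic, STAR, Picard and RSEM and the build mm10. The sources used here give no tool version, annotation release or strandedness of counting. Gene IDs were matched to GENCODE vM21 without version, and 47224 of 47643 matched.

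After rounding, the robust quasi-likelihood method of edgeR 4.0.16 was fitted in R 4.3.3 to 4 group means over 12 libraries, with TMM factors and genes kept by filterByExpr. Benjamini-Hochberg adjustment ran over 17602 genes with a threshold of 0.05. Standard errors (SE) were derived from the F statistic, and CPM used TMM-scaled library sizes, so that 1 CPM stood for 32.7 to 52.8 counts. Transcript length is that of the shortest complete principal transcript. Members and lists were chosen with earlier results of these data known.

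Named by rule were the 5 called members with the smallest p per contrast and direction (3 in the interaction, and the 2 with the smallest p where none was called), stalk genes, paralog pairs, Rps19bp1, the 2 highest and 2 lowest per length, and up to 3 called genes per other list. The list of ribosome partners is not reported here as a whole. Scores are means of centred log2 of CPM plus 0.5 over a marker list. DESeq2 1.42.0, other scalings and filters, score covariates and fits without each library were run as alternatives. The script was tested on simulated data.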

Additional observations from a re-analysis of the deposited data

How the results depend on the processing

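Replicate numbers occur in every group, but they did not pair the libraries: of 18 same-numbered pairs 3 had a correlation of deviations over 0.1 (range −0.11 to 0.14), and 5 of the 12 libraries correlated best with their own number. With the replicate number as a block, 38 genes fell in Pparafl/fl and 26 in PparaΔIE on the high-fat diet, with 0 calls elsewhere. Rescaling, protein-coding genes alone, a filter of 50 counts in 3 libraries and added pseudogenes gave 28 to 35 calls in Pparafl/fl and 22 to 31 in PparaΔIE, without a call in the other contrasts. The DESeq2 Wald test called 55 and 50. Without a filter the counts were 36 and 37, and with only the groups compared 43 and 1.

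The smooth muscle score gave 3 (median −0.13) in Pparafl/fl, 73 (median −0.49) in PparaΔIE, 41 (median −0.40) between genotypes on the high-fat diet, a median of −0.041 between genotypes on chow, and a median interaction of −0.35. The proximal score gave 0 and 2. Where a score did not overlap between the groups compared, it cannot be told apart from diet or genotype. Removing the length trend gave 8 (median −0.096) and 7 (median −0.091), and genotype medians of 0.013 on chow and 0.038 on the high-fat diet. The cause of these shifts was not tested.

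Fits without 1 library called 5 to 69 genes in Pparafl/fl (medians −0.36 to −0.20) and 5 to 55 in PparaΔIE (−0.33 to −0.21), and 0 in the other contrasts. Without both Pparafl/fl chow 1 and PparaΔIE chow 3 the counts were 1 and 0. Genotype medians ran from −0.16 to −0.055 on chow and from −0.15 to −0.022 on the high-fat diet, and the interaction from −0.047 to 0.10. No setting called a member higher.

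Some diet differences that were not called, or called in 1 genotype, changed sign. In Pparafl/fl, Rpl36al was 0.065 and Rpl7l1 was 0.11 with the muscle score, and Rpl7l1 was 0.12 with the proximal score. Rps19bp1 ranged from −0.026 (without Pparafl/fl chow 2) to 0.23 over the fits without 1 library. With the length trend removed, Rpl22 and Rpl7l1 were 0.016, Rps27 0.015 and Rpl36al 0.060. In PparaΔIE, Rps19bp1 was −0.13 with the muscle score, −0.0079 without PparaΔIE chow 2, and from −0.092 (without PparaΔIE HFD 1) to 0.15 over the fits without 1 library. With the length trend removed, Rps29 was 0.026, Rpl36al 0.13 and Rps27 0.049.

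Against protein-coding counts the share of the class was 2.45% and 2.31% in Pparafl/fl and PparaΔIE chow and 2.12% and 2.03% on the high-fat diet. With pseudogenes added it was 2.02% in Pparafl/fl chow. Of the tested members, Rps27rt had the fewest counts, down to 26 in a library, which limits its precision.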
